A study of Mus musculus with 14 samples.

Results

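The 10 imprinted genes Peg3, Peg10, Mest, Grb10, Dlk1, Meg3, H19, Igf2, Snrpn and Plagl1 were examined for the regions that 5 antibodies marked in mouse embryonic stem cells (mESC) with and without a knockdown (kd) of Smarcb1. The genes were chosen by name as well-known imprinted genes, out of 55413 genes of the GENCODE annotation. ChIP-seq was done for the chromatin proteins Smarca4 and Ezh2 and for the histone marks H3K4me3, H3K27ac and H3K27me3. There was 1 control and 1 kd library for each antibody, and the authors deposited the regions called in each library, 10 lists in all, with 4 further input samples that have no list here. All cells belonged to 81K1, a single clone derived from the OG2 line that carries a doxycycline-inducible shRNA against Smarcb1, so the control cells carried the shRNA cassette too. Control cells were untreated, and kd cells received 1 µg doxycycline per ml of medium for 72 h. The lists hold no expression values, so the level of Smarcb1 itself could not be checked in them. With 1 library per antibody and condition, no difference between conditions has a replicate check and none was tested. The values of both libraries are given side by side, with the share of all genes in the same state.

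Smarcb1 is a core subunit of the BAF chromatin remodelling complex, which is driven in mESC by the ATPase Smarca4. Ezh2 is the methyltransferase of Polycomb repressive complex 2 and makes H3K27me3, a mark of repressed genes. H3K4me3 marks promoters, H3K27ac marks active promoters and enhancers, and promoters with H3K4me3 and H3K27me3 together are called bivalent. An imprinted gene is expressed mainly from the maternal or mainly from the paternal copy. The choice goes back to DNA methylation that is laid down in the egg or the sperm at a control region and kept in the embryo, among others by the zinc finger protein ZFP57, which binds its methylated hexamer. At such a region the methylated copy usually carries repressive chromatin and the unmethylated copy carries H3K4me3. Reads of both copies are added together in these libraries. Islands of H3K4me3 and H3K27me3 at the same promoter can therefore lie on the same copy or on different copies, and these cannot be told apart here. The control region of Peg3, Peg10, Mest, Grb10, Snrpn and Plagl1 is known to lie at a promoter and to be methylated in the egg. The control regions of H19 with Igf2 and of Dlk1 with Meg3 lie between the genes and are methylated in the sperm.

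The stretches of sequence that carry the ZFP57 hexamer TGCCGC in the H3K4me3 islands of these genes are shown first, because the control regions are known by it. Each is 120 bp long (mm10, GENCODE M21), was chosen as a stretch without exon bases that holds the most matches, and is written in the direction of transcription of the gene. Capitals mark the hexamer, which reads GCGGCA where it lies on the opposite strand. All 5 stretches overlapped a Smarca4 peak of control and of kd cells. The last one lies between the genes Dlk1 and Meg3, and the others lie in introns of the gene named.
Peg3, chr7:6730057-6730176, minus strand: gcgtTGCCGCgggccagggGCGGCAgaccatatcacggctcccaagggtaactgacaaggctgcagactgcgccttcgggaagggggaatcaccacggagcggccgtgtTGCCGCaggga
Mest, chr6:30737591-30737710, plus strand: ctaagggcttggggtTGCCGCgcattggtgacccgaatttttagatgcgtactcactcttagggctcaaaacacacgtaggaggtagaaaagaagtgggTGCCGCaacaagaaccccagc
Snrpn, chr7:60004332-60004451, minus strand: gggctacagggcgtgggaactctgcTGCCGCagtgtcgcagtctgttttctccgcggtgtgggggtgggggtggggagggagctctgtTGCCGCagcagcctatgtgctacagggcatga
Plagl1, chr10:13091025-13091144, plus strand: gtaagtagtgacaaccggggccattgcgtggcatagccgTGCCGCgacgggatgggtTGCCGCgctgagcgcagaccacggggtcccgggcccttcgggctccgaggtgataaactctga
Dlk1-Meg3 intergenic, chr12:109528333-109528452, plus strand: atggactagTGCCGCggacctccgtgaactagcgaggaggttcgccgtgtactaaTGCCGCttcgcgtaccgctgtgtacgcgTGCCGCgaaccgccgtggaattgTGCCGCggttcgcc

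The H3K4me3 islands of these genes held between 0 and 12 matches to the hexamer. In the kd list, the longer Mest island held 12 matches, the Snrpn island 10, the Peg3 island 8 and the downstream Plagl1 island 6. The island between Dlk1 and Meg3 also held 10 matches. The upstream Grb10 island held 5 matches, the downstream one 4 and the Peg10 island 3. By contrast, the islands at the promoters of Dlk1 and Meg3 held 1 match each, and those of Igf2 held 2 and 0. The upstream Mest island held 1 and the upstream Plagl1 island none. Among all 33506 H3K4me3 islands of the kd list the median was 0 matches, 36.5% held at least 1 and 0.88% held 6 or more. In the 26130 islands of the control list these shares were 43.1% and 1.21%. Long islands can hold more matches, and the Plagl1 island led per length, with 5.0 matches per kb in an island of 1200 bp. Of all islands of the kd list, 0.0686% had at least this many matches per kb. In the control list the same 6 matches lay in an island of 2200 bp, or 2.73 per kb, which 0.39% of all islands reached. The hexamer was also present in 11.6% of 32851 RefSeq promoters of 300 bp on GRCm38, counted on both strands. A match is a description of the sequence and not a bound site.

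**Figure D1:**
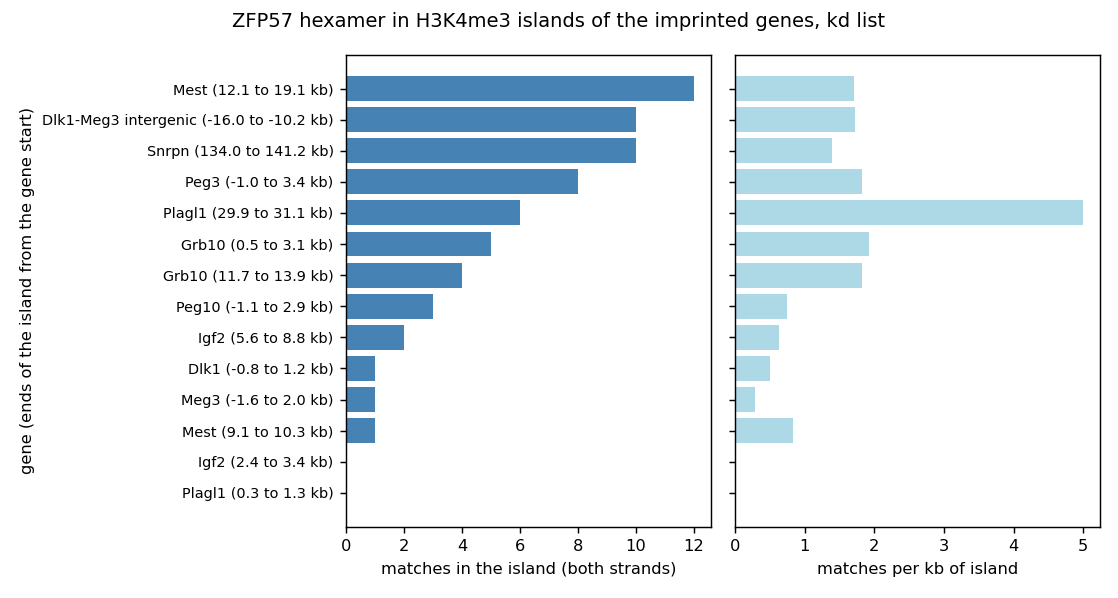
Matches to the ZFP57 hexamer on both strands of each H3K4me3 island of the kd list, as matches per island (left) and matches per kb of island (right), with 1 bar per island. The labels give the ends of the island in kb from the gene start. The 5 islands with 6 to 12 matches belong to Mest, Snrpn, Peg3, Plagl1 and the intergenic stretch between Dlk1 and Meg3, and the Plagl1 island has the most per kb.

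All 10 genes had a Smarca4 peak at a promoter in control and in kd cells, and most promoters carried H3K4me3 and H3K27me3 together. A promoter was taken as the window from 1 kb upstream to 1 kb downstream of any annotated transcript start site (TSS). At such windows, H3K4me3 was called at 9 of 10 genes in both conditions, all except H19. H3K27me3 was called at 9 genes in control and 8 in kd cells, with Snrpn lacking it in both and Meg3 in kd cells. Both marks at the same window were found at 8 genes in control and 7 in kd cells, the difference being Meg3. The Meg3 difference rests on a weak control island. With the longer list of each antibody shortened to the length of the shorter one the counts were 7 and 7. With an upper limit of 1e-20 on the p-value they were 7 and 6, without Meg3 in either condition, and the difference was then Peg10. Ezh2 was called at the same 4 genes in both conditions, namely Grb10, Dlk1, Igf2 and Plagl1. H3K27ac was called at Snrpn in both conditions and at Mest in kd cells alone.

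Over all 55413 genes, Smarca4 was found at a TSS window of 35.8% of genes in control and 36.1% in kd cells. The shares were 31.1% and 33.7% for H3K4me3, 24.3% and 19.7% for H3K27me3, 4.65% and 7.38% for Ezh2, and 12.0% and 20.2% for H3K27ac. Both H3K4me3 and H3K27me3 were found at 11.9% of all genes in control and 12.1% in kd cells, and at 23.6% and 24.0% of the 21938 protein-coding genes. At the annotated 5′ end of the gene alone they were found at 10.9% and 11.1% of all genes, and at 6 and 5 of the 10 imprinted genes. The H3K27ac share of these imprinted genes, with 1 and 2 of 10, was near that of all genes, whereas the count with both marks, 8 and 7 of 10, was above it. The genes have between 2 and 11 start sites each, and a gene with more start sites has more windows in which a region can be found. Windows of all genes except Grb10 and Dlk1 overlap those of an annotated neighbour. Regions at Peg3, Peg10, Snrpn and Igf2 can thus also be those of Usp29, Sgce, Snurf and Igf2os, and the other neighbours are microRNA genes or predicted genes.

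**Figure D2:**
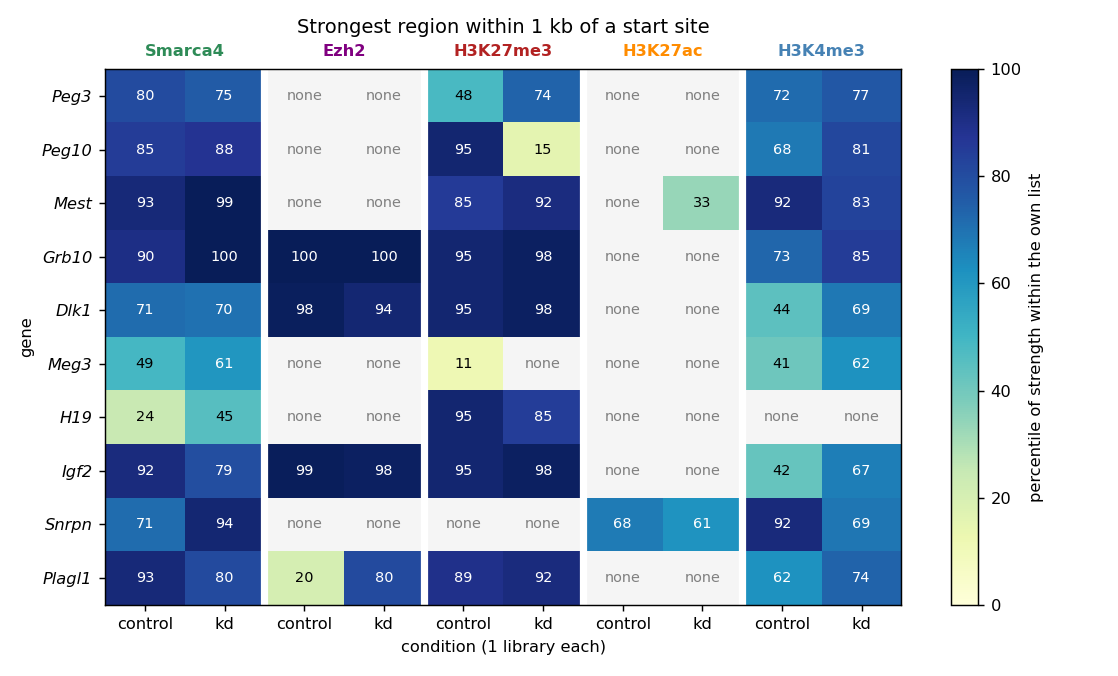
Strongest region within 1 kb of a start site of each gene (rows), for each antibody in control and kd cells (columns, 1 library each), as its percentile of strength within its own list. Smarca4 is listed at all 10 genes in both conditions, H3K27ac at Snrpn and, in kd cells, at Mest.

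Counts of genes hid differences in how many start sites carried both marks. Of the 10 start sites of Mest, 3 had both marks in control and 6 in kd cells, and of the 9 start sites of Grb10, 2 had both in control and 5 in kd cells. Meg3 went the other way, with 5 of 11 start sites in control and none in kd cells. The number was the same in both conditions at Peg3 with 3 of 4, Peg10 with 2 of 2 and Dlk1 with 8 of 9. It was also the same at Igf2 with 6 of 9 and Plagl1 with 9 of 11. The differences at Mest, Grb10 and Meg3 each rested on a single island. The added Mest sites shared a kd H3K4me3 island with a p-value of 2.24e-16, above the stricter limit of 1e-20. The Meg3 sites shared a control H3K27me3 island with a p-value of 8.09e-13, also above that limit. The added Grb10 sites shared a kd H3K4me3 island with a p-value of 2.7e-31, which passed it. Over all genes, counted by gene and not by start site, 2.24% had both marks in control cells alone and 2.5% in kd cells alone. For H3K27me3 the shares were 6.84% in control alone and 2.24% in kd alone, for H3K4me3 0.924% and 3.56%, and for H3K27ac 1.91% and 10.2%.

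The stretch under both marks differed between the genes. At Grb10, Dlk1, Igf2 and Plagl1, the H3K4me3 islands lay wholly inside H3K27me3 islands in both conditions, and these were the 4 genes with Ezh2 at a TSS window. At Grb10 the length under both marks was 2200 bp in control and, over a pair of islands, 2600 bp and 2200 bp in kd cells. At Dlk1 it was 1400 bp in control and 2000 bp in kd cells, and at Igf2 2800 bp in control against 3200 bp and 1000 bp in kd cells. At Plagl1 the islands were shorter in kd cells, with 1800 bp and 2200 bp in control against 1000 bp and 1200 bp. At Peg3, Peg10, Mest and Meg3 the marks overlapped in part, except for a short Mest island of kd cells that lay wholly inside H3K27me3 and for Meg3 in kd cells, where they did not overlap. The H3K4me3 island of Peg3 shared 1400 of its 5800 bp with H3K27me3 in control and 600 of 4400 bp in kd cells. H3K27me3 ended 370 bp upstream of the Peg3 start in both conditions, and H3K4me3 continued for more than 3 kb into the gene. Over all islands, 23.6% of the H3K4me3 islands in control and 20.9% in kd cells touched an H3K27me3 island.

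**Figure D3:**
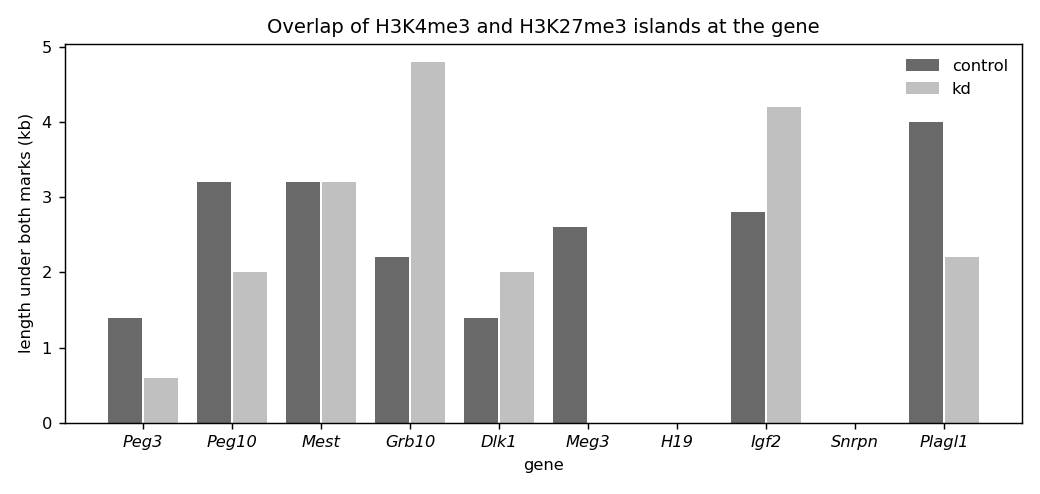
Length in kb covered by H3K4me3 and H3K27me3 islands together at each gene, summed over its H3K4me3 islands, in control (dark) and kd cells (pale), 1 library each. The length is 0 at Meg3 in kd cells and at H19 and Snrpn in both conditions, and it is larger in kd cells at Grb10, Dlk1 and Igf2.

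The strength of a region is given below as its percentile, the share of regions of the same list that were weaker, because scores and p-values were not scaled between libraries. H3K4me3 ranked higher in kd cells at 7 of the 9 genes that had it in both conditions and lower at Mest and Snrpn. The median difference was 11.8 percentiles, against 4.2 over the 16703 genes with H3K4me3 in both conditions, of which 61.2% ranked higher in kd cells. For Smarca4, 6 genes ranked higher in kd cells and 4 lower, with a median difference of 4.6, against -0.7 over 18361 genes, of which 46.6% ranked higher. For H3K27me3, 6 of 8 genes ranked higher, against 44.1% of 9696 genes, but Grb10, Dlk1 and Igf2 were listed at a p-value of 0 in both conditions and moved only through the number of such ties. For Ezh2, 2 of 4 ranked higher, against 67.0% of 2330 genes. A list with more regions shifts all percentiles, and the H3K4me3 list grew from 26130 islands in control to 33506 in kd cells. The Ezh2 list went from 6708 peaks with a median width of 354 bp in control to 5364 peaks with 736 bp in kd cells. Its total length rose from 3.6487 Mb to 5.3568 Mb, so Ezh2 differed between the libraries well beyond these genes.

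Peg3, a zinc finger protein expressed from the paternal copy, carried 4 Smarca4 peaks in control and 5 in kd cells, all within 3.5 kb of its start. The peak at the start itself scored 74 in control, the 57.3rd percentile, and 94 in kd cells, the 68.0th percentile. The strongest control peak lay 499 bp upstream of the start with a score of 136, the 80.3rd percentile, and the peak that overlapped it in kd cells scored 35, the 17.8th percentile. The order of these peaks was therefore reversed between the libraries. The H3K4me3 island was at the 71.6th percentile in control and the 76.6th in kd cells. The H3K27me3 island upstream of it was at the 48.3rd and 73.5th percentile, and of all genes with H3K27me3 in both conditions 3.01% had a larger difference. No Ezh2 peak and no H3K27ac island was listed in the gene region.

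Peg10, a gene derived from a retrotransposon and needed for the placenta, shares its promoter with Sgce. Its gene region had 2 Smarca4 peaks in both conditions. Further upstream, between 6.4 and 14.1 kb from the start and outside the gene region, control cells had 6 more Smarca4 peaks, up to the 64.4th percentile, and none of them had an overlap in kd cells. Of all Smarca4 peaks of control cells, 43.9% had none. The peak over the first part of the gene scored 101 in control and 204 in kd cells, the 70.4th and 87.8th percentile. H3K27me3 was listed in control cells as an island of 19000 bp that ended 1694 bp inside the gene, with a p-value of 0. In kd cells the island was split. A part of 13400 bp, at the 91.3rd percentile, ended 1106 bp upstream of the start, and a part of 2000 bp, at the 15.4th percentile, covered the start. Of the 9696 genes with H3K27me3 in both conditions, 99.6% had a larger difference in percentile at their TSS windows than Peg10 with -79.3, which compares the whole island with the short part. The H3K4me3 island kept a length of 4000 bp and went from the 68.0th to the 81.4th percentile, while its length under H3K27me3 was 3200 bp in control and 2000 bp in kd cells.

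Mest encodes a protein of the hydrolase fold and is expressed from the paternal copy. It had a kd region without a control counterpart for 4 of the 5 antibodies, all but H3K27me3. All 4 missed the stricter limits used in the last section. The Smarca4 and Ezh2 peaks scored 46 and 44, below the limit of 50. The p-values were 3.34e-10 for H3K27ac (limit 1e-10) and 2.24e-16 for H3K4me3 (limit 1e-20). In the whole kd lists, 35.6% of Smarca4, 49.4% of Ezh2, 40.1% of H3K27ac and 29.8% of H3K4me3 regions lacked a control counterpart. The longest H3K4me3 island of Mest covered the start sites 14.5 kb into the annotated gene. It measured 7200 bp in control and 7000 bp in kd cells. Its percentile was 92.3 in control and 82.8 in kd cells. The H3K27me3 island covered 12200 bp in control and 10800 bp in kd cells and overlapped the upstream end of the H3K4me3 island by 3200 bp and 2000 bp. In kd cells alone, a further H3K4me3 island of 1200 bp was called at the upstream start sites, 9054 to 10253 bp into the gene, at the 16.5th percentile. It lay wholly inside H3K27me3. In kd cells alone, an H3K27ac island of 3400 bp covered the downstream start sites at the 33.4th percentile, and an Ezh2 peak of 328 bp with a score of 44 was called 2039 bp from the nearest start site. The main Smarca4 peak, over the downstream start sites, scored 249 in control and 543 in kd cells, the 93.3rd and 99.4th percentile. The Smarca4 peak at the upstream start sites, under the added H3K4me3 island, scored 53 and 103, the 38.4th and 71.1st percentile.

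Grb10, an adaptor protein that inhibits the insulin and IGF receptors, is known to use an upstream promoter for maternal and a downstream promoter for paternal transcripts. Its upstream promoter carried H3K4me3 in both conditions, at the 73.0th percentile in control and the 84.8th in kd cells. Ezh2 at the upstream promoter was among the strongest peaks of its list, with a score of 831 in control and 1680 in kd cells, the 99.8th and 99.9th percentile. The downstream promoter, 11.7 kb into the gene, held a Smarca4 peak of nearly the same position and length in both conditions, 1545 bp in control and 1561 bp in kd cells. Its score was 207 in control and 806 in kd cells, the 90.4th and 99.9th percentile. At this site an H3K4me3 island of 2200 bp was called in kd cells alone, at the 35.2nd percentile. An Ezh2 peak of 261 bp with a score of 19 was called there in kd cells alone too, at the 0.5th percentile and near the limit of the list. Both promoters lay inside a single H3K27me3 island of 38800 bp in control and 36800 bp in kd cells, listed at a p-value of 0 in both. At the upstream promoter a pair of Smarca4 peaks was shared. The one nearer to the gene start scored 153 in control and 42 in kd cells, the 83.6th and 27.8th percentile, and the other 71 and 101, the 55.0th and 70.0th percentile. Within the body of Grb10, the Smarca4 peaks called in 1 condition alone were between the 3.1st and 49.1st percentile.

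Snrpn, which encodes a spliceosomal protein and is expressed from the paternal copy, was the gene with H3K27ac and without H3K27me3 at its promoter. At the downstream start site, 135108 bp from the annotated gene start, H3K27ac was listed in both conditions, at the 67.7th percentile in control and the 61.4th in kd cells. The H3K27ac island next to it, 3 kb further into the gene, was at the 84.0th percentile in control and the 9.6th in kd cells. H3K4me3 covered 4200 bp at the 92.3rd percentile in control and 7200 bp at the 68.8th percentile in kd cells. Of all genes with H3K4me3 in both conditions, 98.0% had a larger difference than Snrpn with -23.5. The Smarca4 peak at the same start site scored 102 in control and 293 in kd cells, the 71.2nd and 94.3rd percentile, and 9.11% of genes had a larger difference. The second Smarca4 peak, about 1 kb upstream, scored 32 and 120. Smarca4 thus ranked higher and H3K4me3 lower at this promoter in kd cells. An H3K27me3 island of 6000 bp was called in kd cells alone, 18290 bp upstream of the downstream start site and inside the annotated gene, at the 66.4th percentile. The H3K27ac islands in Snrpn called more than 10 kb from a start site were 60.4% to 99.6% repeat-masked, which bears on how well reads can be placed there.

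**Figure D4:**
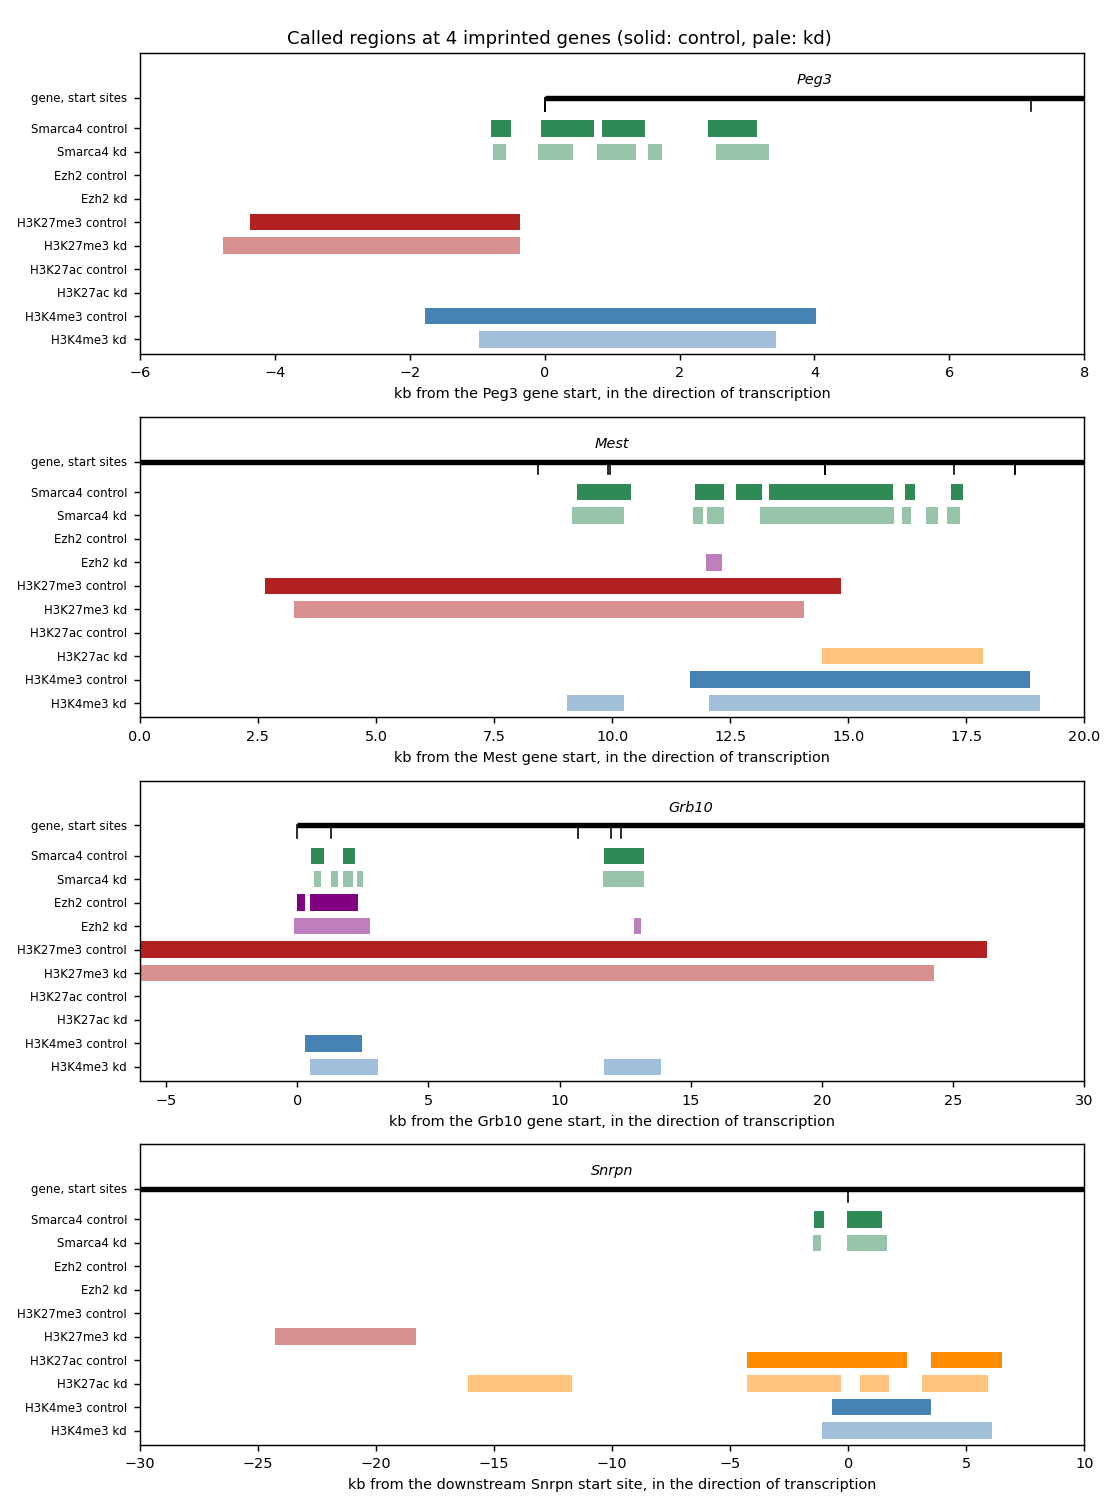
Called regions at Peg3, Mest, Grb10 and Snrpn by distance in kb from the gene start (for Snrpn from its downstream start site), with 1 row per antibody and condition, solid bars for control and pale bars for kd cells, and short black ticks for transcript start sites. H3K4me3 islands without a control counterpart are seen at 9.1 kb of Mest and 11.7 kb of Grb10, and at Peg3 the H3K27me3 island stops upstream of the start.

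Plagl1, a zinc finger transcription factor that restrains growth, carried both marks at an upstream start and at a group of start sites 30.2 to 30.5 kb further in, where its control region lies. H3K4me3 at the downstream group was at the 61.8th percentile in control and the 73.6th in kd cells, and at the upstream start at the 11.8th and 48.6th. Ezh2 was listed at the downstream group with a score of 45 in control and 349 in kd cells, the 20.4th and 80.5th percentile. Of all genes with Ezh2 in both conditions, 5.06% had a larger difference. At the upstream start an Ezh2 peak was called in kd cells alone, with a score of 105. Smarca4 at the downstream group was a single peak of 1150 bp with a score of 245 in control, the 93.1st percentile. In kd cells it was a pair of peaks with scores of 73 and 108, the 56.8th and 71.7th percentile. At the upstream start the Smarca4 peak scored 84 in control and 148 in kd cells, the 62.7th and 80.5th percentile. The percentiles of Smarca4 and Ezh2 at the downstream group thus moved in opposite directions between these libraries. H3K27me3 covered both starts in both conditions, between the 84.6th and 92.0th percentile.

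Igf2, a fetal growth factor expressed from the paternal copy, and H19, a non-coding RNA expressed from the maternal copy, lie 72622 bp apart and share enhancers and a control region. At Igf2, H3K27me3 covered the whole gene region in both conditions, in islands of 26400 bp. Ezh2 at the main promoters scored 564 in control and 935 in kd cells, the 99.1st and 98.0th percentile. H3K4me3 there was at the 42.2nd percentile in control and the 67.1st in kd cells. A further H3K4me3 island of 1000 bp was called in kd cells alone, 2416 to 3415 bp into the gene and 1531 bp from the nearest start site, over an Ezh2 peak present in both conditions with scores of 126 and 412. Smarca4 counted 7 peaks in control and 3 in kd cells. Of the 7 control peaks, 3 had no overlap in kd cells, near the 43.9% of all Smarca4 peaks of control cells, and these 3 lay within 1 kb of a kd peak. The strongest Igf2 peak of control cells scored 229, the 92.0th percentile, and the kd peak that overlapped it scored 57, the 45.4th percentile. The strongest of kd cells was another one, with a score of 140, the 79.4th percentile. It overlapped 2 control peaks that each scored 136, the 80.3rd percentile.

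At H19, H3K27me3 again covered the whole gene region in both conditions, and neither H3K4me3 nor H3K27ac nor Ezh2 was listed. The island over H19 measured 63000 bp with a p-value of 0 in control cells and 37600 bp with a p-value of 4.47e-117 in kd cells. The control island was split in kd cells, where it was overlapped by further islands of 4200 bp and 13200 bp on either side of the one over H19. A single weak Smarca4 peak lay in the gene in each condition, with a score of 43 in control and 57 in kd cells, and these peaks did not overlap. H19 was therefore the only one of the 10 genes without a Smarca4 peak shared by both conditions. Between Igf2 and H19, H3K27me3 covered 97.0% of the stretch in control and 92.8% in kd cells, with no island of H3K4me3 or H3K27ac and no Ezh2 peak.

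The region upstream of H19 is known to be bound by CTCF, a zinc finger protein that insulates Igf2 from the enhancers on the unmethylated maternal copy. The core CCGCGNGGNGGCAG, in which N stands for any base, was searched on both strands of the 6 kb upstream of H19 and found 3 times. With C at the second N, the core itself contains the ZFP57 hexamer on the opposite strand, and none of the 3 cores has C there. On the printed strand, however, the hexamer TGCCGC lies across the left edge of the core at 2179 bp and 3904 bp. All 3 matches are shown with their flanks (mm10, minus strand, the strand of H19), with the core alone in capitals.
H19 upstream 2179 bp, chr7:142580294-142580337: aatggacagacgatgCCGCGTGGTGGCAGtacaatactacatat
H19 upstream 2634 bp, chr7:142580749-142580792: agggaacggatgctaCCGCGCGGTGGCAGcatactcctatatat
H19 upstream 3904 bp, chr7:142582019-142582062: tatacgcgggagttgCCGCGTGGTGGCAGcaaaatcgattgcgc

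All 3 cores lay inside H3K27me3 islands in both conditions. The core at 2634 bp lay in a Smarca4 peak of control cells with a score of 42, at the 23.2nd percentile, that had no overlap in kd cells. A second control peak nearby, 3318 to 3559 bp upstream with a score of 16, had none either. No Smarca4 peak was listed within the 6 kb upstream of H19 in kd cells. Both control peaks were weak, and 43.9% of all 79014 Smarca4 peaks of control cells had no overlap in kd cells. The core was present in 0.0443% of all Smarca4 peaks in control and 0.0456% in kd cells, and in 0.0365% of RefSeq promoters, so the exact letters are rare in all 3 sets.

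Dlk1, a membrane protein related to the Notch ligands and expressed from the paternal copy, and Meg3, a non-coding RNA expressed from the maternal copy, lie 77664 bp apart. At the Dlk1 promoter, H3K4me3 went from the 44.3rd percentile in control to the 68.7th in kd cells, and the island grew from 1400 bp to 2000 bp. Ezh2 there scored 497 in control and 670 in kd cells, the 98.5th and 94.3rd percentile, and the strongest Smarca4 peak 102 and 101. At the Meg3 promoter the H3K4me3 island had the same ends in both conditions, 3600 bp around the start, at the 40.8th percentile in control and the 62.0th in kd cells. H3K27me3 at Meg3 was an island of 2800 bp in control cells, of which 2600 bp lay in the H3K4me3 island. It was at the 11.4th percentile with a p-value of 8.09e-13, near the limit of the list, and no island was listed there in kd cells. The Smarca4 peaks at the Meg3 start were longer in kd cells, with 884 bp and 762 bp against 234 bp and 225 bp in control, and their scores were 78 and 66 against 57 and 64.

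Between Dlk1 and Meg3, H3K27me3 covered 53.1% of the stretch in control and 29.2% in kd cells. Over all lists the length under H3K27me3 was 195.36 Mb in control and 144.83 Mb in kd cells, so this decrease was accompanied by a decrease genome-wide. H3K4me3 covered a stretch of 5400 bp in control and 5800 bp in kd cells, from about 16 kb to 10 kb upstream of Meg3, with no annotated start of these genes in it. Its percentile was 35.2 in control and 46.3 in kd cells. This is the island with the 4 hexamers shown above. The stretch with them lay in the strongest Smarca4 peak between the genes, 12.4 to 12.9 kb upstream of Meg3, with a score of 239 in control and 126 in kd cells, the 92.7th and 76.6th percentile. An H3K27ac island partly overlapped the upstream end of the H3K4me3 island in both conditions, at the 27.7th and 17.9th percentile. Neither H3K27me3 nor Ezh2 was listed in this island in either condition, in contrast to the Dlk1 promoter. In kd cells alone a weak H3K4me3 island, at the 4.5th percentile and 87.9% repeat-masked, was listed between the genes, under an H3K27ac island of both conditions that was 75.2% and 67.2% repeat-masked.

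**Figure D5:**
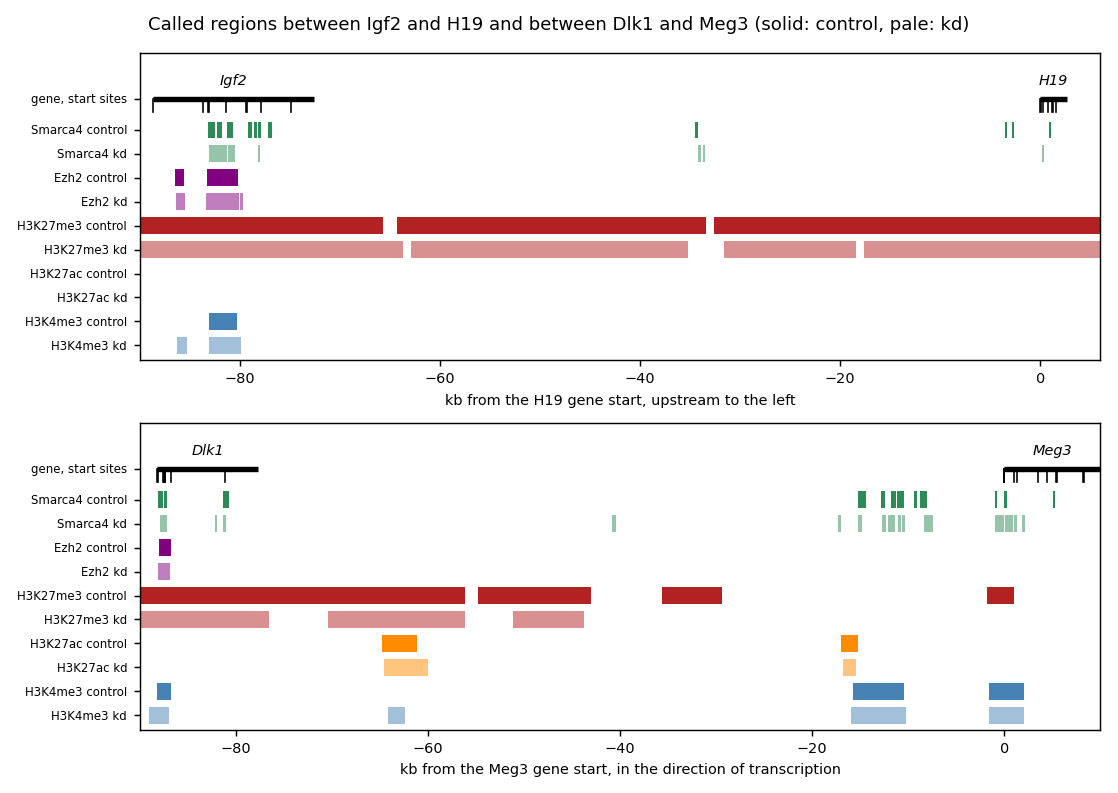
Called regions from Igf2 to H19 (top, by distance in kb from the H19 start) and from Dlk1 to Meg3 (bottom, by distance in kb from the Meg3 start), with 1 row per antibody and condition, solid bars for control and pale bars for kd cells. H3K27me3 covers 97.0% and 92.8% of the stretch between Igf2 and H19 in control and kd cells, and 53.1% and 29.2% of that between Dlk1 and Meg3, where the H3K4me3 island 10 to 16 kb upstream of Meg3 carries no H3K27me3.

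Over the gene regions, taken from 1 kb upstream of the start to the end of the gene, the 10 genes held 39 Smarca4 peaks in control and 41 in kd cells. Of these, 9 and 12 had no overlap in the other condition, or 23.1% and 29.3%, against 43.9% and 35.6% of all Smarca4 peaks. The peaks called in 1 condition alone reached the 67.0th percentile in control and the 58.0th in kd cells, so the strongest Smarca4 peaks of these genes were shared. H3K4me3 counted 10 islands in control and 13 in kd cells. None of the control islands and 3 of the kd islands, at Mest, Grb10 and Igf2, lacked a counterpart, against 8.15% and 29.8% of all H3K4me3 islands. The share of the kd islands, 23.1%, was thus near that of the whole list.

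For H3K27me3, 11 islands were counted in each condition, of which 2 in control and 2 in kd cells had no counterpart, against 44.1% and 28.9% of all islands. The control islands were those at Meg3 and near the end of Plagl1, and the kd islands those inside Snrpn and Plagl1. Ezh2 counted 7 peaks in control and 9 in kd cells, with 1 and 4 found in 1 condition alone, against 51.2% and 49.4% of all peaks. The 4 kd peaks lay at Mest, Grb10, Igf2 and Plagl1. H3K27ac counted 5 and 7 islands, with 2 and 3 found in 1 condition alone, against 23.5% and 40.1% of all islands. The counts of H3K27ac in these genes are too small to be set against those shares.

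A list of 52 other imprinted genes was counted in the same way. It was written with earlier results of these data known, and all 52 were annotated. The windows of Usp29, Sgce and Snurf overlap those of Peg3, Peg10 and Snrpn, so regions there can be counted in both lists. Both marks were found at a TSS window of 23 genes in control and 25 in kd cells, or 44.2% and 48.1%, against 11.9% and 12.1% of all genes. Smarca4 was found at 43 and 42, Ezh2 at 13 and 18, H3K27ac at 8 and 17, H3K4me3 at 39 and 40, and H3K27me3 at 30 and 31. Each gene was given a single parental label, which was not checked in these data and need not hold for all its transcripts. Of the 25 genes listed as paternally expressed, 11 had both marks in both conditions: Usp29, Sgce, Magel2, Peg12, Nnat, Airn, Inpp5f, Gnas, Rasgrf1, Dio3 and Sfmbt2. Mkrn3, Nap1l5 and Slc38a4 had both in kd cells alone. Of the 27 genes listed as maternally expressed, 11 had both marks in both conditions: Cdkn1c, Kcnq1, Phlda2, Ascl2, Igf2r, Slc22a3, Atp10a, Calcr, Pon2, Klf14 and Kcnk9. Cd81 had both in control cells alone. H3K27me3 was called in kd cells alone at Mkrn3, Ndn and Slc38a4 and in control cells alone at Cd81 and Tspan32. H3K4me3 was called in kd cells alone at Nap1l5. Mkrn3 and Ndn belong to the imprinted cluster of Snrpn on chromosome 7.

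Markers of the labelled cell type were checked. H3K4me3 was called at 8 of 8 embryonic stem cell markers (Pou5f1, Nanog, Sox2, Esrrb, Zfp42, Tdgf1, Dppa5a and Klf4) in both conditions, and H3K27ac at 7 in control and 8 in kd cells. H3K27me3 was called at 2 of them in control cells, Esrrb and Klf4, and at Esrrb in kd cells, and Ezh2 at Esrrb in both. Of 6 fibroblast markers, none carried H3K27ac, and H3K4me3 was called at 1 in control and 3 in kd cells, with H3K27me3 at 4 in both. All 4 neural markers carried both marks and none H3K27ac in both conditions. Called regions do not give a share of cells. Smarca4 and H3K27me3 were processed by another laboratory than the other antibodies, so that differences between antibodies and between laboratories cannot be told apart.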

How the data were processed

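Regions were listed for 5 antibodies in 1 control and 1 kd library each. The authors trimmed reads with Trim Galore, aligned them to mm10 with Bowtie2 and filtered them with SAMtools 1.9. Smarca4 and Ezh2 peaks, called with MACS2, were deposited with a whole-number score. H3K27me3, H3K27ac and H3K4me3 islands, called with SICER in windows of 200 bp, were deposited with a p-value that is 0 where it was too small to write. Neither value is scaled between libraries, and the lists hold no read counts. The methods give a nominal read number for the Ezh2, H3K27ac and H3K4me3 libraries, and the depth reached is unknown here. The methods name input as the background, the peak names and labels IgG.

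Regions were used as deposited (chromosomes 1 to 19, X and Y), and overlaps of at least 1 bp were counted with bedtools 2.31.1 against GENCODE M21 (the study names a later release). Sequences were read from GRCm38 with pysam 0.24.0, and RefSeq promoters came with the reference. Equal strengths within a list shared a mean percentile. Regions that overlapped none of the other condition were called in 1 condition alone. Overlap counting was checked on simulated lists. No test between conditions was made. The 10 genes, the other lists and the motifs were chosen with earlier results of these data known. All 10 genes were named. Other imprinted genes were named where they had both marks at a TSS window, or one of these marks in 1 condition alone. Alternatives were stricter thresholds, other windows and overlap rules, merged regions and lists of equal length.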

Additional observations from a re-analysis of the deposited data

How the results depend on the processing

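With 1 library per antibody and condition, no library could be left out. No paired analysis was possible because the groups have 1 sample each. Of 162 alternative values, 138 stayed within 1.5 times the value reported, among them all counts of genes with both marks, although the difference of these counts ended with lists of equal length (7 and 7) and was no longer at Meg3 with stricter limits (7 and 6). With stricter limits (score 50, or p-values of 1e-10 for H3K27ac and 1e-20 for the other marks), Smarca4 counted 28 peaks in control and 25 in kd cells. Of these, 8 and 6 had no overlap, against 9 and 12 as reported, so this direction turned. Ezh2 had 1 such peak in control and 2 in kd cells, and H3K27me3 had 0 and 1 such islands. For H3K27ac the stricter limits left 1 gene in kd cells. They also left 2 islands over 9800 bp in control (1 without an overlap) against 1 island over 1200 bp in kd cells (0 without an overlap), so the direction of H3K27ac turned. At the gene's 5′ end alone, Ezh2 was found at 2 genes in control and 3 in kd cells, and H3K27ac at 0 in control and 0 in kd cells. With regions within 1 kb merged, Smarca4 counted 20 and 21 peaks. With peaks within 1 kb counted as shared, 2 control and 3 kd Smarca4 peaks remained in 1 condition alone. With 10 kb flanks, H3K27me3 counted 17 islands in kd cells and covered 191055 bp in control and 183455 bp in kd cells, against 98286 bp and 100391 bp without them, so the direction of this length turned, as it did with stricter limits (93886 bp and 93591 bp). With lists of equal length, 1 H3K27me3 and 4 H3K27ac islands of control cells had no overlap, and H3K27ac counted 5 islands in each condition over 15800 bp in control and 13600 bp in kd cells, turning the direction of its length. The higher number of Smarca4 peaks in kd cells turned with the stricter limits and with 10 kb flanks. The cause of these shifts was not tested.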
